A study of Mus musculus with 6 samples.

Results

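Binding of 5 proteins was described at the loci of Eomes, T, Cdx2 and Gata6, genes for transcription factors of early lineages, in mouse embryonic stem cells. A peak, that is a stretch of the genome where more sequenced fragments piled up than in the background, was counted when it overlapped a fixed window given for the gene. In coordinates of the mm9 build these windows were chr9:118365000-118415000 for Eomes, chr17:8605000-8655000 for T, chr5:148090000-148140000 for Cdx2 and chr18:11030000-11105000 for Gata6. The placement of the windows on the genes was not checked against an mm9 annotation. They held 35 of the 70533 peaks in the 5 deposited lists. Of these, 20 lay at Eomes, 9 at Cdx2, 6 at T and 0 at Gata6.

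The peaks came from chromatin immunoprecipitation and sequencing (ChIP-seq) of formaldehyde-fixed J1 cells, a mouse embryonic stem cell line, grown on gelatin with 15% serum and 1000 U/ml leukemia inhibitory factor. BirA, a biotin ligase from bacteria, was present in all cells, and it adds biotin to proteins that bear its tag. Antibodies were used for Tgif1, Smad3 and Hdac1, whereas streptavidin beads pulled down Nanog and Tgif2. Each factor had 1 library and 1 list, so no value has a replicate check and no test between factors was possible. The mock precipitation was not analysed here. The Tgif1 list held 16400 peaks, that of Tgif2 19129, that of Hdac1 16506, that of Nanog 17272 and that of Smad3 1226. Library depth is unknown. Peaks say nothing of expression, so neither the labelled cell type nor the activity of the 4 genes could be checked.

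Eomes and T encode T-box factors. T, also called Brachyury, marks the primitive streak and is needed for mesoderm, and Eomes acts in the streak, in definitive endoderm and in trophoblast. Cdx2 encodes a caudal-type homeodomain factor that is required for trophectoderm, the outer layer of the blastocyst, and Gata6 a zinc finger factor of primitive endoderm and later of heart and gut. In the embryo Nodal and Activin signals, carried to chromatin by Smad2 and Smad3, induce Eomes and T. Tgif1 and its paralog Tgif2 are homeodomain corepressors that bind Smads and recruit histone deacetylases such as Hdac1, while Nanog helps to hold stem cells in the pluripotent state.

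The 250 bases before the annotated start sites are shown because these are the control regions best defined for the genes. They come from RefSeq on GRCm38.p6, where 3 of 3 genes looked up were matched by symbol. Capitals mark every match, on either strand, to TGACA, the core of the site that Tgif factors bind, or to CAGAC, the Smad site.

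Eomes promoter, chr9:118477939-118478188, plus strand: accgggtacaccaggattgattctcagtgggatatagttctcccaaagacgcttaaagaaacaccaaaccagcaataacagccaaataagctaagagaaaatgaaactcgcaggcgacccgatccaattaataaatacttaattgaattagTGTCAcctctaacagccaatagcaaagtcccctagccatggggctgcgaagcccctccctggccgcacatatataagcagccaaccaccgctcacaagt
T promoter, chr17:8434173-8434422, plus strand: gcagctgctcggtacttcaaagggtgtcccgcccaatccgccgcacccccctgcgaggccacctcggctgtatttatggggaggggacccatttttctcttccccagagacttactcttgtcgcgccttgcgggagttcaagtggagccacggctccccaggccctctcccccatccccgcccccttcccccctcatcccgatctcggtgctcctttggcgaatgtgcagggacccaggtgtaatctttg
Cdx2 promoter, chr5:147307250-147307499, minus strand: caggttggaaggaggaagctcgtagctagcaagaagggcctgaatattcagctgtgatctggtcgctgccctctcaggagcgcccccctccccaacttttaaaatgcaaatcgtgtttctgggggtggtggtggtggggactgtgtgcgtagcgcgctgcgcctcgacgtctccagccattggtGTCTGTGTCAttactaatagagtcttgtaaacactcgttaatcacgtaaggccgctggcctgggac

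The Eomes and Cdx2 stretches each held 1 TGACA match, at bases 152 to 156 and 190 to 194 counted from the 5′ end. Both matches were on the strand opposite to the one printed. A CAGAC match lay directly before that of Cdx2, at bases 185 to 189, also on the opposite strand. The T stretch held neither. Such matches were common, since 40.0% of 32851 promoter stretches of this length held TGACA and 42.2% held CAGAC. The longer Tgif motif TGACAG, the homeodomain motif TAATGG and the T-box motif TCACAC had 0 matches in the 3 stretches, against 15.9%, 6.57% and 12.3% of all stretches. TGACAG contains TGACA, so these counts are not separate. The peaks are on mm9 and these sequences are not, so no peak was placed on a promoter, exon or intron.

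At Eomes, 4 of the 5 factors had peaks, and they were spread over 7 separate places in the window. Tgif1 and Nanog had 6 peaks each, Tgif2 5, Hdac1 3 and Smad3 0. As background, the genome was cut into 52720 windows of 50 kb without regard to genes. A Tgif1 peak lay in 18.8% of them, a Tgif2 peak in 21%, an Hdac1 peak in 19.2%, a Nanog peak in 20% and a Smad3 peak in 2.04%. As many Tgif1 peaks as at Eomes were found in 0.353% of windows, and as many Nanog peaks in 0.338%. For Tgif2 that share was 0.928% and for Hdac1 3.07%. Among the 16487 windows with a peak of any list the shares were 1.13% for Tgif1, 1.08% for Nanog, 2.97% for Tgif2 and 9.83% for Hdac1. So many Tgif1, Tgif2 or Nanog peaks in 1 window were uncommon, whereas absence of Smad3 was the state of most windows.

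T and Cdx2 carried fewer peaks in the full lists. Among peaks at or above the median tag number of their list, however, Cdx2 had 6, Eomes 5 and T 3. At T there were 2 peaks of Tgif2, 2 of Nanog, 1 of Tgif1 and 1 of Hdac1. At Cdx2 there were 3 of Tgif1 and 2 each of Tgif2, Hdac1 and Nanog. Tgif1, Tgif2, Hdac1 and Nanog were all present at each of these 3 loci, a combination found in 8.77% of 50 kb windows. These were 4624 windows, all among the 16487 with a peak of any list, so the combination was not rare in occupied windows. Counting peaks of all 5 lists, 0.436% of windows held at least the 20 peaks of Eomes, 3.88% at least the 9 of Cdx2 and 7.81% at least the 6 of T. At least 1 peak of any list lay in 31.3% of windows, and among these the shares were 1.40% for Eomes, 12.4% for Cdx2 and 24.98% for T. The tiled windows ignore genes while the 4 studied windows were chosen for genes, and the part of this in the comparison was not tested.

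**Figure D1:**
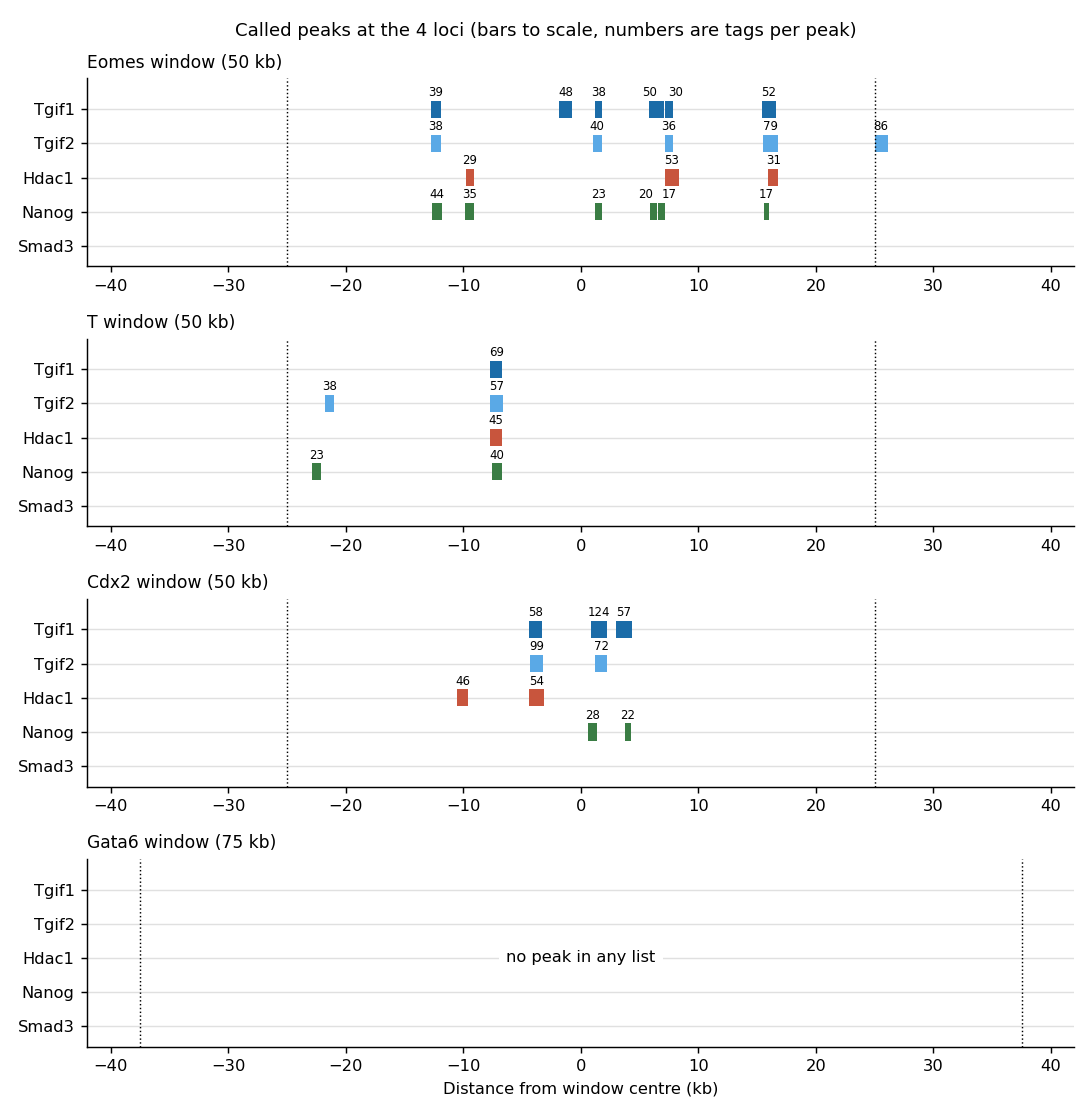
Called peaks in the windows of Eomes, T, Cdx2 and Gata6 as bars drawn to scale, with distance from the window centre in kb on the horizontal axis, 1 row per factor, tags per peak above each bar and window edges as dotted lines. Peaks of several factors stack at shared places at Eomes, T and Cdx2. Tgif1, Tgif2, Hdac1 and Nanog all meet in a place only at Eomes and T, not at Cdx2. Smad3 has no peak at any locus and the Gata6 window is empty.

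**Figure D2:**
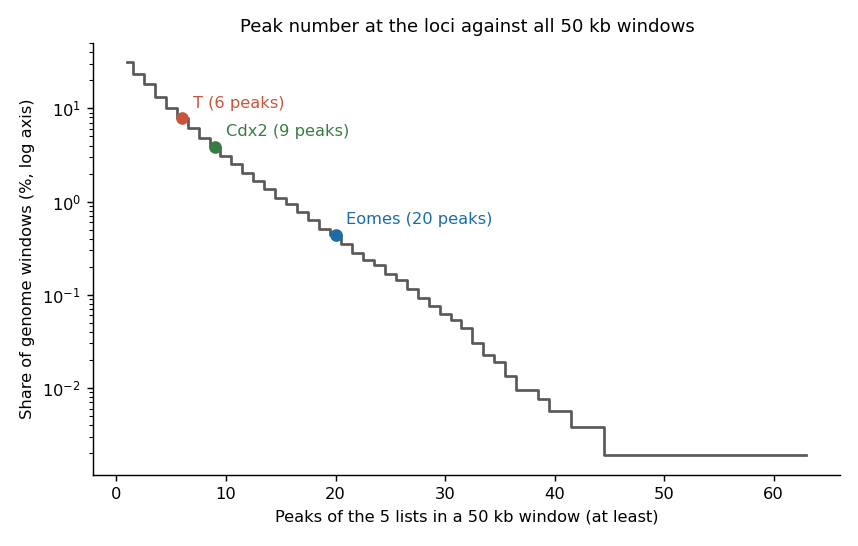
Share of 52720 genome windows of 50 kb (vertical, log axis) that hold at least the number of peaks of the 5 lists given on the horizontal axis, with the T, Cdx2 and Eomes windows marked. Eomes with 20 peaks lies far along the tail, at 0.436% of windows, and T with 6 lies at 7.81%.

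The places at Eomes are numbered here in order of position. Region 1, chr9:118377239-118378184, carried Tgif1 (9.24-fold, 39 tags), Tgif2 (12.6-fold, 38 tags) and Nanog (13.0-fold, 44 tags). Fold is the enrichment of a peak over its background and tags are the sequenced fragments in it, both the authors' values. Region 2, 1.95 kb further on at chr9:118380138-118380910, carried Nanog (26.6-fold, 35 tags) and Hdac1 (12.0-fold, 29 tags) without either Tgif factor. Region 3, chr9:118388164-118389276, carried Tgif1 alone, at 5.42-fold and 48 tags, which was rank 16282 of the 16400 Tgif1 peaks by fold. The first places thus differed in which factors they held, and Hdac1 was present in only 1 of these 3.

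Region 4, chr9:118391015-118391839, again joined Tgif1 (23.2-fold, 38 tags), Tgif2 (21.7-fold, 40 tags) and Nanog (16.4-fold, 23 tags). Regions 5 and 6 each joined 4 factors, region 5 only by narrow overlaps. Region 5, chr9:118395834-118398317, was the widest at 2483 bp and held 6 peaks, with 2 each of Tgif1 and Nanog. In it Tgif1 reached 17.5-fold with 50 tags and 19.5-fold with 30 tags, and Nanog 35.8-fold with 20 tags and 19.1-fold with 17 tags. Tgif2 in region 5 reached 18.6-fold with 36 tags and Hdac1 21.0-fold with 53 tags, the strongest Hdac1 peak of the locus by both measures. The Nanog peak between them overlapped the right-hand Tgif1 peak by 52 bp, Tgif2 by 48 bp and Hdac1 by 34 bp, with summits 649 to 696 bp apart. Region 5 was thus close to a pair of neighbouring places, of which only the right-hand one held Tgif2 and Hdac1.

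Region 6, chr9:118405454-118406805, held the Tgif1 peak with the highest fold at the 4 loci, at 31.9-fold with 52 tags, rank 1150 of its list. Tgif2 there reached 26.5-fold with 79 tags, Hdac1 15.5-fold with 31 tags and Nanog 24.7-fold with 17 tags. Region 7, chr9:118414999-118416105, was a Tgif2 peak of 39.3-fold with 86 tags that only touched the window and lay almost wholly beyond its edge. Its summit, the position of highest signal, was outside the window. A Tgif1 peak of 30.5-fold with 73 tags and an Hdac1 peak of 17.1-fold with 58 tags overlapped it but began 55 and 50 bp beyond the edge, so they are not among the 35. On the other side the nearest peak outside the window was of Nanog, 15.1 kb away, with 45.4-fold and 23 tags.

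At T, 4 of the 6 peaks lay in 1 place, chr17:8622269-8623383. Tgif1 reached 29.8-fold with 69 tags, Tgif2 22.0-fold with 57 tags, Hdac1 23.0-fold with 45 tags and Nanog 45.4-fold with 40 tags. This was the best Hdac1 rank by fold at the 4 loci, 939 of 16506, and the best Nanog rank, 3390 of 17272. The other peaks at T stood alone, a Nanog peak at chr17:8607152-8607853 with 34.8-fold and 23 tags and a Tgif2 peak at chr17:8608271-8608967 with 7.85-fold and 38 tags. They were 418 bp apart and did not overlap. Just outside the left edge, 2.61 to 2.73 kb away, a further place held Tgif1, Tgif2, Hdac1 and Nanog at 8.76-fold, 7.23-fold, 7.90-fold and 16.02-fold. To the right of the window the nearest peak of these factors was one of Tgif2 at 62.6 kb.

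Cdx2 had the Tgif1 and Tgif2 peaks with the most tags and no place with all 4 factors. Its Nanog peaks held 22 and 28 tags, fewer than the highest at Eomes, 44, and at T, 40. The Tgif1 peak with the most tags at the 4 loci, chr5:148115865-148117215, held 124 tags at 22.0-fold and ranked 1243 of 16400 by tags. It overlapped Tgif2 (14.1-fold, 72 tags) and Nanog (10.47-fold, 28 tags) but not Hdac1. To its left, chr5:148110551-148111827 held Tgif1 (14.7-fold, 58 tags), Tgif2 (36.8-fold, 99 tags) and Hdac1 (7.99-fold, 54 tags) but not Nanog. These places with Tgif1 and Tgif2 thus differed in the partner, Nanog in one and Hdac1 in the other. The gap between them was 3.79 kb.

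The remaining Cdx2 places held fewer factors. Tgif1 (12.7-fold, 57 tags) and Nanog (20.2-fold, 22 tags) shared chr5:148117978-148119321, which began 730 bp after the place with Tgif1, Tgif2 and Nanog. Hdac1 stood alone at chr5:148104505-148105417 with 11.7-fold and 46 tags. All of the Cdx2 peaks lay within the middle of the window, with summits from -10.1 to 4.10 kb of its centre. The nearest peaks outside were of Tgif1 and Tgif2, 7.72 and 7.84 kb beyond the left edge.

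The Gata6 window, 75 kb wide, held no peak of any list. Of 35149 genome windows of this width, 61.4% were also empty of all 5 lists, and on chromosome 18 it was 62.8% of 1210. At least 1 Tgif1 peak lay in 24.2% of them, a Tgif2 peak in 26.9%, an Hdac1 peak in 24.7%, a Nanog peak in 26.4% and a Smad3 peak in 3.02%. An empty window was therefore common. The closest peaks were of Nanog, 6.98 kb beyond the right edge (38.2-fold, 28 tags) and 23.4 kb beyond the left edge (45.4-fold, 23 tags). The gap between peaks that spans Gata6 was 105 kb in the Nanog list, 778 kb for Tgif1, 778 kb for Tgif2 and 949 kb for Hdac1. Gaps at least as long held 87.2%, 53.5%, 49.6% and 47.7% of the bases between peaks of those lists, so lying in such a gap was ordinary. By number, gaps this long were fewer, at 29.1%, 4.08%, 3.28% and 3.21% of the gaps in those lists. For Smad3 the gap was 11761 kb, and gaps at least as long held 21.2% of the bases and were 2.66% of the gaps. A list shows only sites that passed the peak caller, and the fewest tags in a listed peak were 30 in the Tgif1 list, 33 in that of Tgif2, 28 in that of Hdac1, 16 in that of Nanog and 11 in that of Smad3. Weaker binding at Gata6, or of Smad3 at the 4 loci, was not detectable from these lists.

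The strength of the peaks depended on the measure. By fold, 23 of the 35 peaks were at or above the median of their list, and by tags 14 were. Among the strongest 10% of their list were 6 peaks by fold and 1 by tags. The difference was made at Eomes and T, where 15 of 20 and 5 of 6 peaks ranked higher by fold than by tags. At Cdx2 it was 4 of 9. None of the 6 Tgif1 peaks at Eomes reached the list's median of 54 tags, with values from 30 to 52, although 4 of them exceeded the median fold of 13.3. Those at Cdx2 held 57 to 124 tags and all 3 were above the median tag number. A Tgif1 peak with 73 tags began 55 bp beyond the Eomes window, so this contrast depends on where the window ends.

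The other factors also differed between the loci, each on few peaks. At Cdx2 both Tgif2 peaks were above their list's median of 57 tags, whereas at Eomes 2 of 5 were, with values from 36 to 86. The Tgif2 peak with 86 tags had its summit outside the window. At Eomes all 3 Hdac1 peaks exceeded the list's median fold of 10.7 but only 1 reached its median of 47 tags, and at Cdx2 it was 1 of 2 by each measure. Nanog peaks were of middling rank, with 5 of 10 at or above the median fold of 23.7 and 3 of 10 at or above the median of 30 tags. Both Nanog peaks at Cdx2 were below the median by both measures, and both at T were above it by fold. Tag numbers follow peak width as well as height. Over all factors, peaks at Eomes were 449 to 1332 bp wide and those at Cdx2 535 to 1350 bp. Tgif1 peaks alone differed more, with 619 to 1234 bp at Eomes and 1172 to 1350 bp at Cdx2. The part of width in these ranks was not tested.

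**Figure D3:**
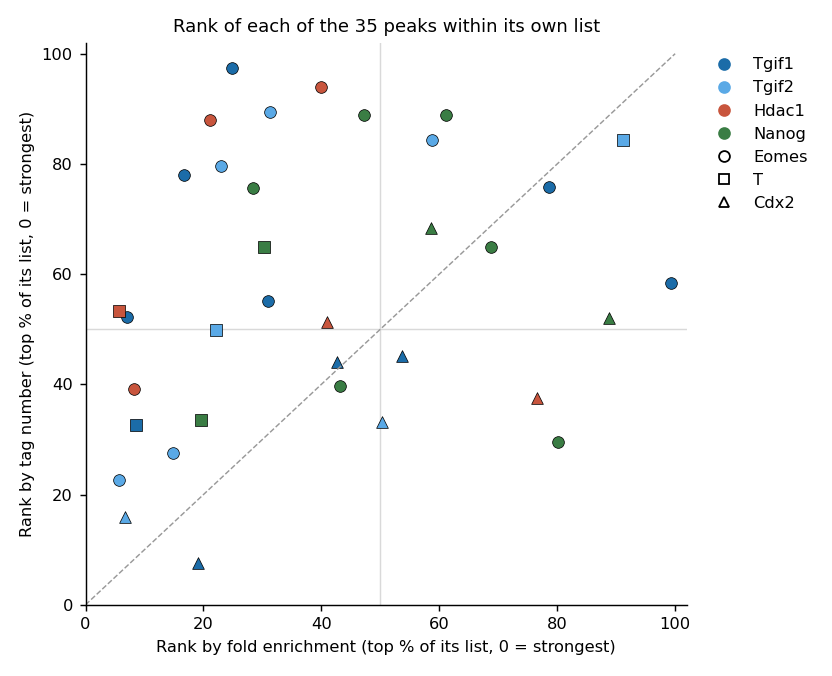
Rank of each of the 35 peaks within its own list, by fold on the horizontal and by tag number on the vertical axis, in percent from the strongest at 0, with colour for the factor and shape for the locus. Most Eomes and T points lie above the dashed line of equal rank, 15 of 20 and 5 of 6, whereas Cdx2 points lie on both sides.

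Peaks at the loci were mostly shared between factors, as were most peaks of the full lists. Of the 10 Tgif1 peaks, 8 overlapped a Nanog peak by at least 1 bp, against 36.7% of all Tgif1 peaks. Tgif2 overlapped 7 of them, against 79.2%, and Hdac1 4, against 66.1%. Seen from Nanog, 8 of 10 peaks overlapped Tgif1, against 35.8% of the list, 6 overlapped Tgif2, against 36.7%, and 4 overlapped Hdac1, against 45.9%. The share of Tgif1 and Nanog peaks that met was larger at these loci than in the lists, while that of Tgif1 with Tgif2 was near its background. The 10 Tgif1 peaks come from 3 windows, 6 of them at Eomes, so they are not independent and the difference was not tested. With both lists limited to peaks at or above their median fold, Nanog overlapped 3 of the 7 remaining Tgif1 peaks, against 23.4% of the limited list.

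Of the 9 Tgif2 peaks, 8 overlapped Tgif1, against 68% of the list, 5 overlapped Hdac1, against 59.9%, and 6 overlapped Nanog, against 32.2%. Of the 6 Hdac1 peaks, 4 overlapped Tgif1, 4 Tgif2 and 4 Nanog, against 64.6%, 68.4% and 45.6% of the list. The Hdac1 shares with both Tgif factors were close to those of the whole list. Only 1 peak of each of the 4 factors overlapped no other factor. Of the whole lists, 9.10% stood alone for Tgif1, 17.9% for Tgif2 and 11.2% for Hdac1, so 1 of 10, 1 of 9 and 1 of 6 were not far from these shares. For Nanog it was 1 of 10, against 43.3% of the list.

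**Figure D4:**
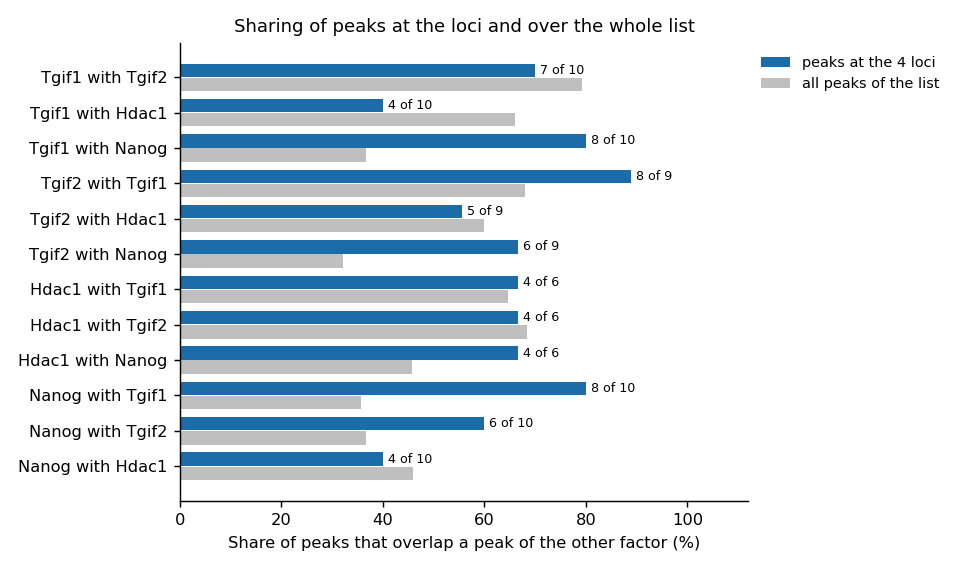
Share of peaks in percent that overlap a peak of another factor, for the peaks at the 4 loci in blue, with their counts, and for all peaks of the same list in grey. The blue bars exceed the grey ones most for Tgif1 and Tgif2 with Nanog and Nanog with Tgif1 and Tgif2, less for Hdac1 with Nanog and Tgif2 with Tgif1, and fall below them for Tgif1 with Hdac1, Tgif1 with Tgif2, Tgif2 with Hdac1 and Nanog with Hdac1, while Hdac1 with Tgif1 and with Tgif2 are within a few points.

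Sharing with Nanog was looser when judged by summits. A Nanog summit lay within 200 bp of 4 of the 10 Tgif1 summits, against 29.1% of the Tgif1 list, and of 1 of the 9 Tgif2 summits, against 24.5%. For Tgif1 with Tgif2 the count was 6 of 10, against 62.6%, and for Tgif1 with Hdac1 2 of 10, against 48.7%. Tgif2 summits lay this near to Tgif1 in 7 of 9 cases, against 53.7%, and to Hdac1 in 4 of 9, against 43.1%. Those of Hdac1 were this near to Tgif1 in 2 of 6 cases, against 48.3%, to Tgif2 in 3, against 49.9%, and to Nanog in 2, against 38.7%. Nanog summits had Tgif1 within this range in 4 of 10 cases, against 27.7%, Tgif2 in 1, against 27.2%, and Hdac1 in 2, against 37%. By this measure Tgif1 with Nanog and Tgif1 with Tgif2 were near the shares of their lists, and Tgif2 with Nanog and Tgif1 with Hdac1 were below it, each on 10 peaks or fewer. In 7 overlapping pairs the Tgif1 and Tgif2 summits were a median of 19 bp apart, with 5 pairs within 50 bp and the widest at 538 bp. From the 8 Tgif1 peaks that overlapped Nanog, the nearest Nanog summit was a median of 178 bp away, with a range from 11 to 649 bp. Measured in the same way over all overlapped Tgif1 peaks, the medians were 41 bp with Tgif2 and 59 bp with Nanog. The values rest on few peaks of 3 windows, and their difference from the lists was not tested.

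Within a place, summits formed separate pairs at T and in region 6 of Eomes, but not in every place with 3 or 4 factors. At T the Tgif1 and Tgif2 summits were 18 bp apart and those of Hdac1 and Nanog 30 bp apart, whereas the pairs were 385 to 433 bp from each other. In region 6 of Eomes the partners were different. Tgif2 and Hdac1 were 8 bp apart and Tgif1 and Nanog 48 bp apart, while the summits of Tgif1 and Tgif2 were separated by 538 bp. In the Cdx2 place with Nanog the Tgif1 and Tgif2 summits were 2 bp apart and that of Nanog lay 530 bp from Tgif1. In the Cdx2 place with Hdac1 all 3 summits fell within 91 bp. Region 4 of Eomes was the tightest, with Tgif1, Tgif2 and Nanog summits within 19 bp. Each summit is a single call from 1 library, so its error is unknown.

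**Figure D5:**
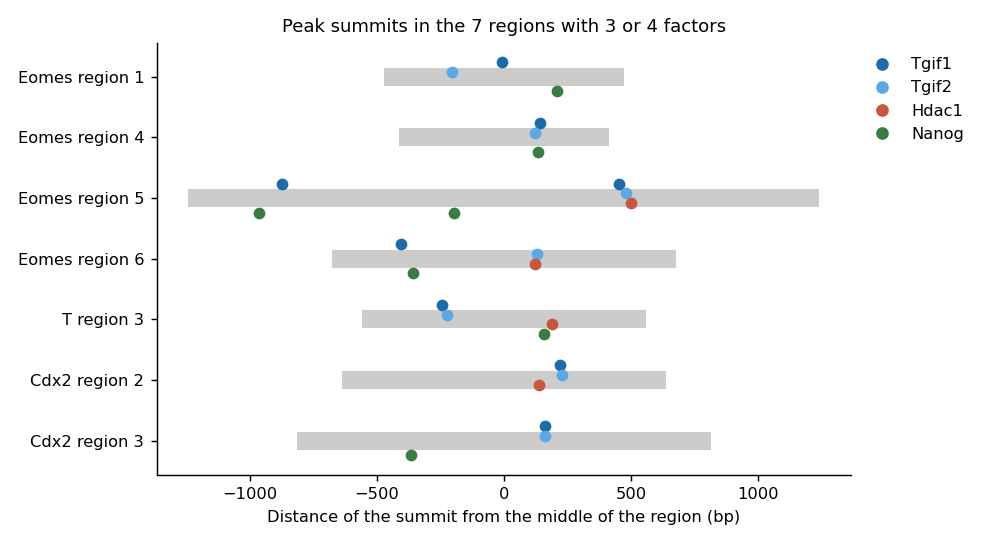
Positions of peak summits in the 7 regions with 3 or 4 factors, in bp from the middle of the region, with the extent of the region as a grey bar and colour for the factor. Tgif1 and Tgif2 nearly coincide in Eomes region 4, T region 3 and both Cdx2 regions, and lie 538 bp apart in Eomes region 6. In Eomes region 5 the right-hand Tgif1 summit lies 27 bp from that of Tgif2.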

How the data were processed

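Peak lists of 5 ChIP-seq libraries, 1 per factor, were used. Per the submitters' processing notes, reads were handled with BWA 0.5.9-r16 and MACS on mm9. The control library and threshold are not given in the sources used here. The deposited lists have no header, so columns were read from their values. The authors' fold is a ratio of peak to background, and the deposited tag number is a count per peak. The position repeated in the last columns was taken as the summit. Starts may count from 0 or 1, so coordinates carry an error of 1 bp.

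The 4 loci were given, and windows, lists and alternatives were chosen with earlier results of these data known. Every peak overlapping a window is accounted for. The text names the strongest peak per factor and locus and each region with 3 or more factors. Ranks run from the highest value, and ties take the better rank. Overlapping peaks were joined to regions. Background windows were tiled over chromosomes 1 to 19 and X up to the last peak. Overlap counts were tested on simulated data and checked with bedtools 2.31.1, where 0 of 20 pairs of lists differed. Counts at other genes of these lineages, planned for an mm9 annotation, were not made. Python 3.11.15, NumPy 2.4.6, pandas 2.3.3, statsmodels 0.14.6 and matplotlib 3.10.9 were used.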

Additional observations from a re-analysis of the deposited data

How the results depend on the processing

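No paired analysis was possible because each factor had 1 library, and for the same reason no replicate could be left out. Of 104 alternative values for the counts of peaks, tags, shared peaks, regions and windows, 73 stayed within 1.5 times the reported count, or within its interval for shares of windows, and 31 did not. Counts of 0, as for Smad3 and Gata6, could not change under settings that only remove or join peaks. Such values are counted among those that stayed, here and for single factors at single loci. Of 115 further values, for single factors at single loci and ranks of single peaks, 52 moved. They include Tgif1 at Eomes, where 0 of 6 peaks reached the median tag number, not counting a peak of 73 tags just beyond the edge. They also include the ranks of all 35 peaks by tags against fold. A rank counted as moved once it left a narrow 95% interval around the rank by fold. Small shifts were thus included, such as top 42.6% by fold against 44.1% by tags for a Tgif1 peak at Cdx2. That all ranks moved therefore says little about the size of the shifts. With windows widened by 25 kb on each side, T had 10 peaks and Gata6 had 2, both of Nanog. Limiting lists to peaks at or above the median tag number left 5 peaks at Eomes, 6 at Cdx2 and 3 at T, so that Cdx2 then exceeded Eomes, and 4 for Tgif1, 5 for Tgif2, 2 for Hdac1 and 3 for Nanog. By tag number 14 of the 35 peaks were in the upper part of their list. Limiting lists to peaks at or above the median fold left 4 peaks at Cdx2 and 5 of Nanog, with 135 Nanog tags.

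With both lists limited in this way, 3 of 7 Tgif1 peaks were shared with Nanog (23.4% of the limited list), 3 of 5 Nanog peaks with Tgif1 (22.5%), 2 of 6 Tgif2 peaks with Nanog (18.2%) and 2 of 5 Nanog peaks with Tgif2 (20.3%). By summits within 200 bp, 4 were shared for Tgif1 with Nanog and for Nanog with Tgif1, 2 for Tgif1 with Hdac1, Hdac1 with Tgif1, Hdac1 with Nanog and Nanog with Hdac1, and 1 for Tgif2 with Nanog and Nanog with Tgif2. An overlap of 50% of the shorter peak left 2 of 6 for Hdac1 with Nanog (45.3% of the list) and 2 of 10 for Nanog with Hdac1 (45.3%). Among windows that held a peak of any list, the share with Tgif1 was 60.0%, with Tgif2 67.2%, with Hdac1 61.2%, with Nanog 63.9% and with Smad3 6.53%. The settings with a minimum fold or tag number leave fewer peaks by construction. Wider windows can only add peaks, an overlap of 50% can only remove shared ones, and leaving out empty windows can only raise the shares. For the other changes the cause was not tested.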

Other observations

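The nearest Smad3 peak to any of the 4 windows lay 31.5 kb beyond the right edge of the Eomes window, at chr9:118446535-118447511. It had 12.8-fold enrichment and 37 tags and ranked 245 by fold among the 1226 Smad3 peaks. A Nanog peak of 37.0-fold with 105 tags and a Tgif2 peak of 12.9-fold with 45 tags overlapped it. Beyond each edge only the nearest peak of a factor was looked up. For Tgif1 and Hdac1 these lay 55 and 50 bp from the window, so their overlap with the Smad3 peak was not examined. This Nanog peak held more tags than any of the 10 Nanog peaks inside the windows, which held 17 to 44. The other windows were farther from Smad3, with the nearest peaks at 515 kb for Cdx2, 1193 kb for T and 5668 kb for Gata6. Whether the Smad3 peak belongs to Eomes was not tested.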
